A study of Mus musculus with 30 samples.

Results

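Mitf, Trpm1 and Oca2 were followed across the regions of the embryonic mouse eye. They are 3 of the 56484 genes listed in the count table, taken by gene symbol, and all 3 passed the filter on low counts that left 8337 genes (over 10 counts in 3 or more libraries). The table held 30 Geo-seq libraries of E12 embryos with the genotype control. In Geo-seq, cells of a chosen tissue area are cut out of a frozen section by laser, and their cDNA is amplified and sequenced. By the study's methods the controls were littermates without the Dct-Cre transgene on a C57Bl6/J background, from 4 embryos, so libraries of different regions share embryos. The prospective retinal pigmented epithelium (pRPE, labelled RPE) gave 7 dorsal libraries, 3 of them distal and 4 proximal, and 7 ventral libraries, 4 distal and 3 proximal. The optic stalk (OS) gave 3 dorsal distal, 2 dorsal middle, 2 dorsal proximal, 3 ventral distal, 4 ventral middle and 2 ventral proximal libraries. Batch A held 14 libraries and batch B held 16, and replicate numbers below only name libraries within a region.

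Mitf is the basic helix-loop-helix leucine zipper factor that drives the pigment cell programme. It is required for the RPE to form from the optic neuroepithelium, and it binds E-box sequences in front of genes of melanin synthesis and melanosomes. Trpm1, a cation channel of the TRPM family, is a known Mitf target in melanocytes. Its transcription unit also holds the microRNA miR-211. Oca2 codes for a melanosomal membrane protein that sets the ion balance and pH of the melanosome, and its loss causes a form of albinism.

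On the GRCm38 build with the GENCODE M21 annotation, Mitf lies on the plus strand of chromosome 6 (97807052 to 98021349) with 8 annotated transcripts. Trpm1 (64153835 to 64269775, 23 transcripts) and Oca2 (56239760 to 56536518, 6 transcripts) lie on the plus strand of chromosome 7. The counts are per symbol and do not resolve transcripts, so the RPE and melanocyte forms of Mitf are summed. The library preparation is not described as stranded. The antisense pseudogene Gm15531 in an intron of Mitf had 23 counts in 3 libraries, and Gm44506, antisense within an intron of Oca2, had 36 counts in 5 libraries. Mir211 was listed at 0 in all 30 libraries.

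E-boxes of the kind that Mitf and its relatives bind were searched in the RefSeq promoter windows of the 3 genes (GRCm38.p6, 250 bases before to 50 after a start site). The motifs were CATGTG, which reads CACATG on the other strand, CACGTG, and the longer TCATGTG, which contains CATGTG. The 3 windows of Mitf held none of them. Oca2 held CACATG at position -186 from the start. The first Trpm1 window held CATGTG at position -141, as part of TCATGTG. The second Trpm1 window held CACGTG at position -229 and CACATG 36 bases after the start. Of all 32851 windows, 14.2% held CATGTG on either strand, 7.15% held CACGTG and 3.77% held TCATGTG. A match describes the letters alone. The 250 bases before each start site with a match are shown because they carry these E-boxes, with the matches in capitals. The mature miR-211-5p of a Trpm1 intron (chr7:64205831-64205852) is added with its seed, bases 2 to 8, in capitals.
Oca2, chr7:56239509-56239758, plus strand: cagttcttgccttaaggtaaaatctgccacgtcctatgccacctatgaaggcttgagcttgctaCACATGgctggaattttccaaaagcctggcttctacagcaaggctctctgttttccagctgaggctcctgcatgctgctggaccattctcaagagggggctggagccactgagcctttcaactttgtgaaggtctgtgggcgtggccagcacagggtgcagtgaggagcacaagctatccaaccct
Trpm1, first start, chr7:64153585-64153834, plus strand: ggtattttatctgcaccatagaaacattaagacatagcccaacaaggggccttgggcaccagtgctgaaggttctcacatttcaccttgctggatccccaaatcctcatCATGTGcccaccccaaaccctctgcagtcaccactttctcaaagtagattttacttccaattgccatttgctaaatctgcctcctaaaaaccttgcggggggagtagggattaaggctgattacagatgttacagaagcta
Trpm1, second start, chr7:64185209-64185458, plus strand: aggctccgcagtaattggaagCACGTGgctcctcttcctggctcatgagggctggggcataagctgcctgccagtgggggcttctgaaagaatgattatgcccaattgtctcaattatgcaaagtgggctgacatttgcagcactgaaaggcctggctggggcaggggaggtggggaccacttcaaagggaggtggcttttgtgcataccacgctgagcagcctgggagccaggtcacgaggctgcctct
mmu-miR-211-5p: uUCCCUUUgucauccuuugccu

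Total counts on genes ranged from 1421918 to 6041021 per library, and 1730 to 9886 genes had a count. Levels are in CPM, the count scaled to a fixed library total, with library sizes scaled by the TMM method. A count of 0 allows up to 3 counts in a library, which was 0.644 to 2.17 CPM, and this limit covers counting error only. The mitochondrial share of the counts was 41.2% to 55.4% in batch A and 30.4% to 48.4% in batch B. Several genes that define the RPE or the optic cup had no count. Tyr, Tyrp1, Dct, Lrat and Ttr were listed at 0 in all 30 libraries, as was Pax6, a transcription factor known to be made throughout the early optic cup, and Otx2 and Pmel had a count in 3 each. Whether such zeros come from the tissue or from how the table was made is not known, so a library without a count is given as listed at 0, and that is not read as absence of the transcript. In laser-captured tissue, fewer cells of a type and less RNA per cell cannot be told apart.

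Mitf was counted in most pRPE and dorsal OS libraries and in 1 ventral OS library. It had a count in 18 of 30 libraries: 11 of 14 in the pRPE, 6 of 7 in the dorsal OS and 1 of 9 in the ventral OS. Where it was counted, it had between 10 and 699 counts with a median of 126, and 17 of the 18 libraries had at least 20. In the dorsal distal pRPE its level was 24.7, 0 and 239 CPM. In the dorsal proximal pRPE it was 195, 72.2, 19.1 and 49.4 CPM. The dorsal distal pRPE thus held both the highest Mitf level of the series and a library listed at 0. In the ventral distal pRPE Mitf was at 54.2 and 30.4 CPM in the batch A libraries and listed at 0 in both batch B libraries. In the ventral proximal pRPE it was at 105, 36.98 and 38.05 CPM, so that all 7 proximal pRPE libraries had a count.

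In the OS the highest Mitf levels lay in the dorsal distal region, at 53.0, 158 and 115 CPM. In the dorsal middle OS it was at 0 and 29.998 CPM. The dorsal proximal OS held 35.4 and 3.17 CPM. All 3 ventral distal and both ventral proximal libraries were listed at 0. In the ventral middle OS, Mitf was listed at 0 in replicates 1, 3 and 4 and stood at 39.8 CPM in replicate 2, from 87 counts. By mean level the order was OS dorsal distal (109 CPM), pRPE dorsal distal (87.9), pRPE dorsal proximal (83.9), pRPE ventral proximal (59.9), pRPE ventral distal (21.2), OS dorsal proximal (19.3), OS dorsal middle (14.999), OS ventral middle (9.94) and, listed at 0, OS ventral distal and OS ventral proximal. Every region's range overlapped or touched that of its neighbour in this order.

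**Figure D1:**
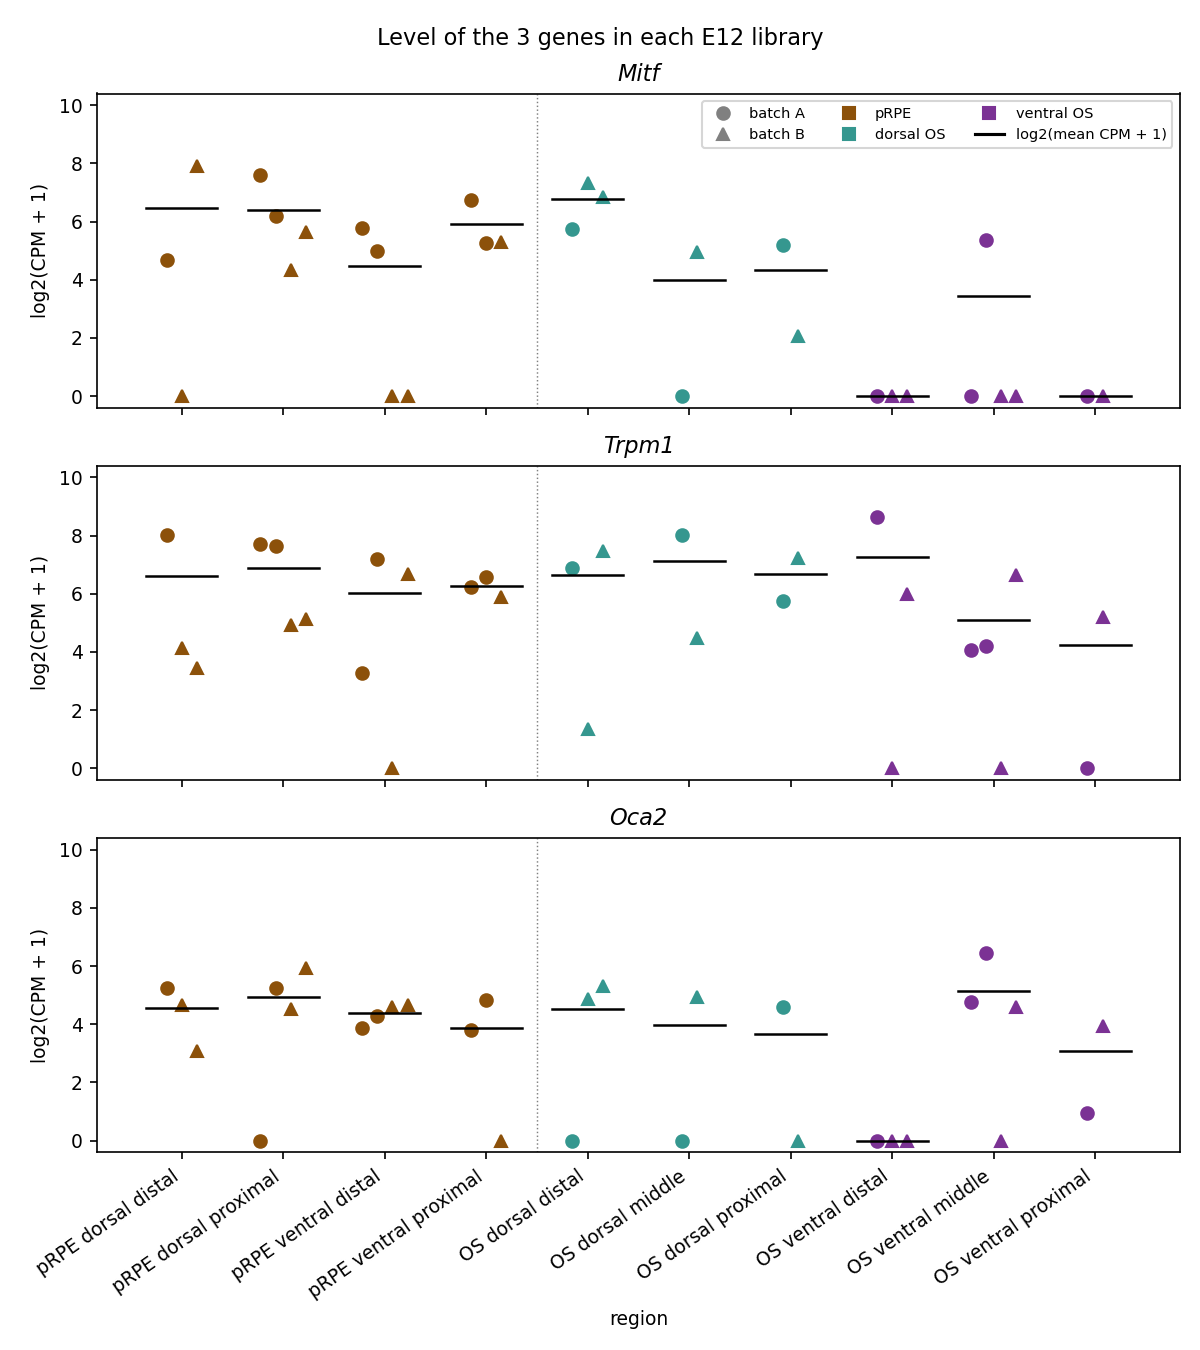
Level of Mitf, Trpm1 and Oca2 on the log2(CPM + 1) scale in each of the 30 libraries, by region. Circles are batch A and triangles batch B, colours give the tissue, and a bar marks the region's mean CPM on the same scale. Mitf lies at 0 in 8 of the 9 ventral OS libraries, while Trpm1 and Oca2 have libraries with a count in 6 and 5 of them.

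The comparison of the dorsal and ventral OS asks whether the stalk shares Mitf with the pRPE on its dorsal side. Mitf averaged 56.4 ± 59.2 CPM in the dorsal OS (SD, n = 7) and 4.42 ± 13.3 CPM in the ventral OS (SD, n = 9), a ratio of 12.8. The groups overlapped, since OS dorsal middle replicate 1 was listed at 0 and OS ventral middle replicate 2 was not. Without OS ventral middle replicate 2 no ventral library had a count, and the ratio was 46.1 with each ventral library set at 3 counts. This is a lower bound by counting error alone, and no bound where the table itself lost counts. Without OS dorsal distal replicate 2 the ratio was 8.93. Fisher's exact test on libraries with a count, 6 of 7 against 1 of 9, gave a two-sided p of 0.00874, and a value under 0.05 was reached by 2.08% of all genes tested. After Benjamini-Hochberg adjustment over the 8337 genes this exact test gave 1. In batch A the shares were 2 of 3 and 1 of 4 (exact p = 0.486). In batch B they were 4 of 4 and 0 of 5 (exact p = 0.00794). The library numbers fall into 4 runs in which each region occurs at most once, and the exact tests and the correlations do not take these runs into account.

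edgeR's quasi-likelihood test with the batch in the model fitted a log2 fold change of 8.21 (SE 3.87) for Mitf in the dorsal over the ventral OS, with an unadjusted p of 0.0409 and an adjusted p of 0.234, and did not call it. Calls needed a log2 fold change of more than 0.58 in size and an adjusted p below 0.05. In this contrast 0.012% of the genes were called and 19.6% had an unadjusted p under 0.05, so the unadjusted value of Mitf is one of many. With the runs of library numbers as a block in place of the batch it was 9.11 (SE 3.76, adjusted p = 0.286). Without the batch term the fitted value was 3.68, and a fitted fold change of a gene so often at 0 is no bound. DESeq2 gave an adjusted p of 0.000628 and called Mitf among 4.11% of the genes.

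Leaving the dorsal proximal libraries out of the dorsal side gave values of the same kind. Mitf had a count in 4 of 5 and 1 of 9 libraries, with an exact Fisher p of 0.023 and 0.852 after adjustment, and 3.59% of genes had a p under 0.05. The means were 71.3 ± 64.5 CPM (SD, n = 5) and 4.42 CPM. edgeR fitted a log2 fold change of 9.34 (SE 4.18) with an adjusted p of 0.195, where 0.276% of the genes were called and 18.4% had an unadjusted p under 0.05. Without the batch term it was 4.02. DESeq2 called it with an adjusted p of 0.000591, together with 5.1% of the genes. Both contrasts share the 9 ventral OS libraries. The study itself set the dorsal middle and distal OS beside the pRPE by clustering these libraries, so the direction in this contrast is not independent evidence.

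Depth of detection stood beside this difference. Among the 8 ventral OS libraries without a Mitf count 1730 to 4853 genes were detected, and Mitf was counted in libraries with 2693 to 9886 detected genes. Among the libraries with at least 3000 detected genes, Mitf had a count in 5 of 6 dorsal and 1 of 6 ventral OS libraries, with an exact Fisher p of 0.0801. In the 8 ventral libraries without Mitf, Trpm1 had a count in 5 and Oca2 in 4. With the number of detected genes in the edgeR model the log2 fold change of Mitf between dorsal and ventral OS was 6.72 (SE 2.77, adjusted p = 0.204), and in libraries with at least 3000 detected genes it was 7.39 (SE 4.27, adjusted p = 0.442).

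Between the whole pRPE and the whole OS, Mitf averaged 61.7 ± 72.4 CPM (SD, n = 14) and 27.2 ± 46.9 CPM (SD, n = 16). The ratio of 2.27 ran from 1.77 without pRPE dorsal distal replicate 3 to 3.35 without OS dorsal distal replicate 2. It was not called by edgeR (log2 fold change 1.23, SE 1.36, adjusted p = 0.852), where 5.34% of the genes were called. Against the ventral OS alone, chosen after the data were seen, the fitted log2 fold change was 5.33 (SE 2.09) with an adjusted p of 0.0803. Libraries with a count were 11 of 14 and 7 of 16 (exact Fisher p = 0.0717, adjusted 0.491). In batch A they were 7 of 7 in the pRPE and 3 of 7 in the OS, and in batch B 4 of 7 and 4 of 9.

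Within the pRPE no positional difference of Mitf passed the test, and edgeR called 0% of the genes in either contrast (13.2% and 8.71% had an unadjusted p under 0.05, and DESeq2 called 209 and 35 genes). The dorsal mean was 85.6 ± 93.5 CPM and the ventral mean 37.8 ± 35.7 CPM (SD, n = 7 each), with a log2 fold change of 1.71 (SE 1.53, edgeR adjusted p = 0.791). Mitf had a count in 4 of 7 distal and 7 of 7 proximal libraries (exact Fisher p = 0.192, adjusted 1). The interaction, which tests whether the dorsal-ventral difference is the same in pRPE and OS, gave a log2 value of -3.43 (SE 2.58, edgeR adjusted p = 0.588), and 0% of the genes were called (20.8% had an unadjusted p under 0.05, and DESeq2 called 766 genes). A larger dorsal-ventral difference in the stalk than in the pRPE was therefore not shown. Between the distal and proximal OS Mitf averaged 54.4 CPM (n = 6) and 9.64 CPM (n = 4), which edgeR did not call (adjusted p = 1; 0.012% of genes called). That ratio of 5.64 was 51.5 without OS dorsal proximal replicate 1 and 3.48 without OS dorsal distal replicate 2.

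Trpm1 was the most widely counted of the 3 genes and was counted in every region. It had a count in 26 of 30 libraries, with 4 to 902 counts and a median of 194 where counted. In the dorsal distal pRPE its level was 261, 16.5 and 9.91 CPM. In the dorsal proximal pRPE it was 208, 197, 29.4 and 33.8 CPM. In both regions the batch A libraries were the higher ones, at 197 to 261 CPM in 3 libraries against 9.91 to 33.8 CPM in 4 of batch B. How many other genes split these libraries by batch was not counted. In the ventral pRPE the batches overlapped for Trpm1, at 8.66 to 145 CPM in batch A and 0 to 102 CPM in batch B. They also overlapped in the dorsal OS, at 53.4 to 257 and 1.57 to 177 CPM. The ventral distal pRPE held 8.66, 145, 0 and 102 CPM. The ventral proximal pRPE was the most even region, at 75.0, 94.8 and 58.3 CPM.

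In the OS, Trpm1 was counted in all 7 dorsal libraries. The dorsal distal OS held 118.1, 1.57 and 177 CPM. The dorsal middle OS held 257 and 21.0 CPM, and the dorsal proximal OS held 53.4 and 149.8 CPM. The ventral distal OS, where Mitf and Oca2 were both listed at 0, held the highest Trpm1 level of the series, with 394, 0 and 62.8 CPM. The ventral middle OS held 15.9, 17.4, 0 and 100.02 CPM. The ventral proximal OS held 0 and 35.7 CPM. By mean level the order ran from OS ventral distal (152 CPM), OS dorsal middle (139) and pRPE dorsal proximal (117) through OS dorsal proximal (102), OS dorsal distal (98.9), pRPE dorsal distal (95.9), pRPE ventral proximal (76.0) and pRPE ventral distal (63.98) to OS ventral middle (33.3) and OS ventral proximal (17.9), and the ranges of all neighbours overlapped.

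The mean of Trpm1 was 88.6 ± 84.3 CPM in the pRPE (SD, n = 14) and 87.8 ± 111 CPM in the OS (SD, n = 16). The edgeR log2 fold change was -0.31 (SE 0.95, adjusted p = 0.973). In the OS it averaged 111 ± 92.0 CPM dorsally (n = 7) and 69.6 ± 126 CPM ventrally (n = 9), with an edgeR adjusted p of 0.971. Without OS ventral distal replicate 1, which held 902 counts, that ratio of 1.60 became 3.84. Between the batches Trpm1 averaged 132 ± 118.2 CPM in batch A (SD, n = 14) and 49.9 ± 55.3 CPM in batch B (SD, n = 16). With the tissue in the model the log2 difference was -1.46 (SE 0.95), which edgeR did not call (adjusted p = 0.686, with 4.46% of the genes called). By runs of library numbers the mean of Trpm1 was 72.2 and 165 CPM in batch A, and 28.2 and 66.8 CPM in batch B. The mitochondrial share was also higher in batch A by its range, and its part in the Trpm1 levels was not tested.

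Oca2 was counted in both tissues and on both sides of the stalk. It had a count in 21 of 30 libraries, from 2 to 191 counts with a median of 70. In the dorsal distal pRPE its level was 36.8, 24.0 and 7.52 CPM. In the dorsal proximal pRPE it was 0, 36.5, 22.1 and 59.3 CPM. All 7 distal pRPE libraries had a count, whereas Mitf was counted in 4 of these. In the ventral distal pRPE it was 13.7, 18.3, 22.8 and 24.1 CPM, and in the ventral proximal pRPE 12.8, 27.7 and 0 CPM.

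In the OS, Oca2 had no count in the ventral distal region, listed at 0 in all 3 libraries. The dorsal distal OS held 0, 27.8 and 38.7 CPM. The dorsal middle OS held 0 and 29.6 CPM, and the dorsal proximal OS held 23.1 and 0 CPM. The ventral middle OS held the highest level of the series, 87.3 CPM, in replicate 2, beside 26.0, 0 and 23.3 CPM in replicates 1, 3 and 4. The ventral proximal OS held 0.937 CPM, from 2 counts, and 14.2 CPM. The ordered means were 34.2 CPM in OS ventral middle, 29.5 in pRPE dorsal proximal, 22.8 in pRPE dorsal distal, 22.2 in OS dorsal distal, 19.7 in pRPE ventral distal, 14.8 in OS dorsal middle, 13.5 in pRPE ventral proximal, 11.6 in OS dorsal proximal, 7.55 in OS ventral proximal and 0 in OS ventral distal. The listed ranges of all neighbours overlapped except those of the last, with 2 and 3 libraries. That gap rests on 0.937 CPM against listed zeros. A listed 0 allows up to 1.31 CPM in OS ventral distal replicate 1, so these regions are not separated either.

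Oca2 averaged 21.8 ± 15.7 CPM in the pRPE (SD, n = 14) and 16.9 ± 23.3 CPM in the OS (SD, n = 16), with an edgeR log2 fold change of 0.34 (SE 1.2, adjusted p = 0.980). It had a count in 12 of 14 and 9 of 16 libraries (exact Fisher p = 0.118, adjusted 0.558). The dorsal and ventral OS had means of 17.0 ± 16.6 CPM (n = 7) and 16.9 ± 28.5 CPM (n = 9). Without OS ventral middle replicate 2 the ratio of the OS means moved from 1.01 to 2.11. None of the 3 genes was called by edgeR in any of the 8 contrasts fitted. An unadjusted p under 0.05, and a call by DESeq2, was reached by Mitf in the 2 dorsal against ventral OS contrasts.

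Whether Trpm1 and Oca2 follow Mitf was asked over all 30 libraries on the log2(CPM + 1) scale. All 3 genes had a count in 14 libraries, of which 9 were pRPE, 4 dorsal OS and 1 ventral OS, and 2 libraries had none, both of the ventral OS. Mitf and Trpm1 gave Pearson's r = 0.240 (permutation p = 0.201) and Spearman's rho = 0.146 (permutation p = 0.438). Mitf and Oca2 gave r = 0.304 (permutation p = 0.104) and rho = 0.244 (permutation p = 0.191). Trpm1 and Oca2 gave r = 0.015 (permutation p = 0.936) and rho = -0.034 (permutation p = 0.855). After adjustment over the 3 pairs the permutation p-values of r were 0.302, 0.302 and 0.936, and those of rho 0.658, 0.573 and 0.855. No pair passed the test.

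Within batch A (n = 14) r was 0.240 for Mitf and Trpm1, 0.335 for Mitf and Oca2 and -0.148 for Trpm1 and Oca2. Within batch B (n = 16) it was 0.136, 0.300 and 0.157. Spearman's rho within batch A was -0.056, 0.052 and -0.227 for these pairs, and within batch B 0.074, 0.354 and 0.150, so the sign for Mitf and Trpm1 in batch A depended on the measure. Without the pair of libraries farthest from the median of the first gene, taken in library order among those tied at 0, r was 0.291, 0.302 and -0.012. Libraries at 0 weigh on these values. Among the libraries that counted both genes r was -0.273 for Mitf and Trpm1 (n = 18), -0.360 for Mitf and Oca2 (n = 14) and 0.170 for Trpm1 and Oca2 (n = 19), given as a description.

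On presence alone, every library with a Mitf count also had a Trpm1 count: 18 libraries had both, 8 had Trpm1 alone and 4 had neither, with an exact Fisher p of 0.0181 and 0.0542 after adjustment over the 3 pairs. The 4 libraries without Trpm1 had 1730 to 3029 detected genes. Mitf and Oca2 were both counted in 14 libraries, Mitf alone in 4, Oca2 alone in 7 and neither in 5 (exact Fisher p = 0.418). Trpm1 and Oca2 were both counted in 19 (exact Fisher p = 0.563).

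**Figure D2:**
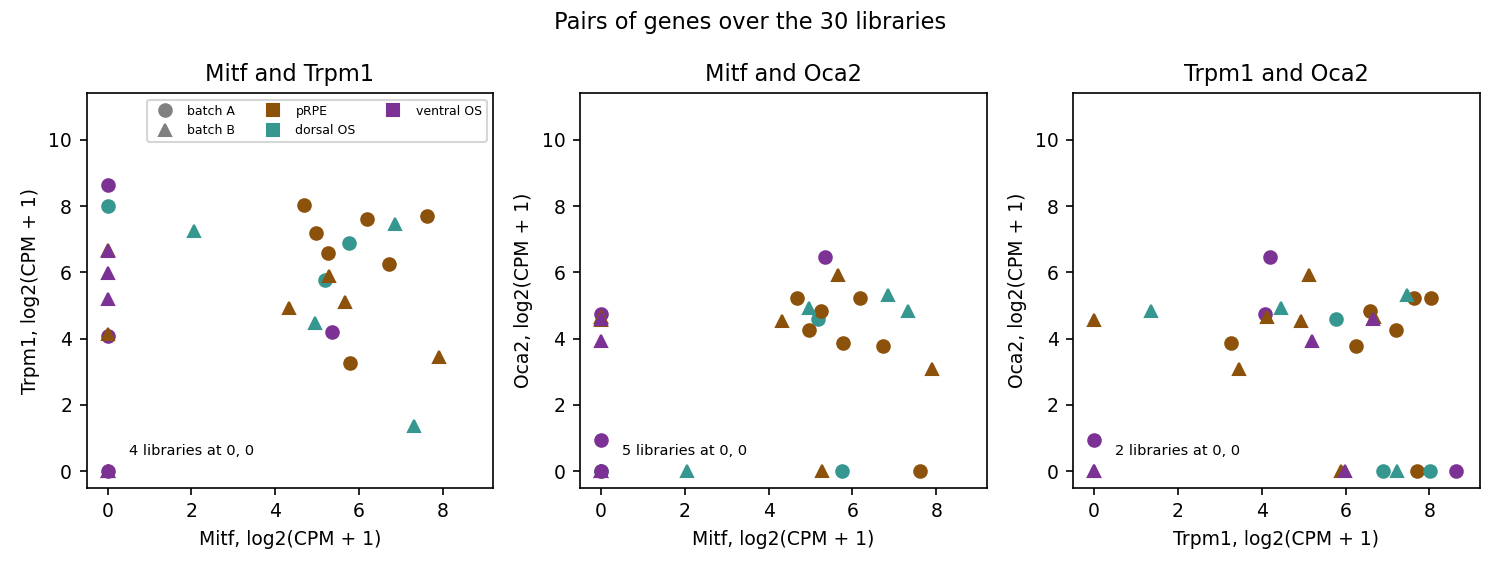
Each pair of genes over the 30 libraries, both axes log2(CPM + 1), with colours for the tissue and symbols for the batch. Libraries line up along the axes where 1 gene of the pair is listed at 0, and 4, 5 and 2 libraries lie at 0 for both genes. Among the 18 libraries with both Mitf and Trpm1 r was -0.273.

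The number of detected genes moved with Mitf and Oca2. Over the 30 libraries Mitf correlated with it on a log2 scale at r = 0.577 (permutation p = 0.001, 0.0015 after adjustment over 3 genes) and rho = 0.475 (permutation p = 0.00878). Oca2 gave r = 0.614 (permutation p = 0.00029, adjusted 0.00087) and rho = 0.578 (permutation p = 0.00118). Trpm1 gave r = 0.326 (permutation p = 0.0783) and rho = 0.178 (permutation p = 0.346). Within batches A and B, r was 0.606 and 0.615 for Mitf (rho 0.302 and 0.528), 0.752 and 0.550 for Oca2 (rho 0.751 and 0.481), and 0.324 and 0.398 for Trpm1 (rho 0.103 and 0.239). Without the farthest pair of libraries it was 0.591, 0.627 and 0.177. With batch and number of detected genes regressed out, Mitf correlated with Trpm1 at r = -0.060 (permutation p = 0.753) and with Oca2 at r = -0.094 (permutation p = 0.621).

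**Figure D3:**
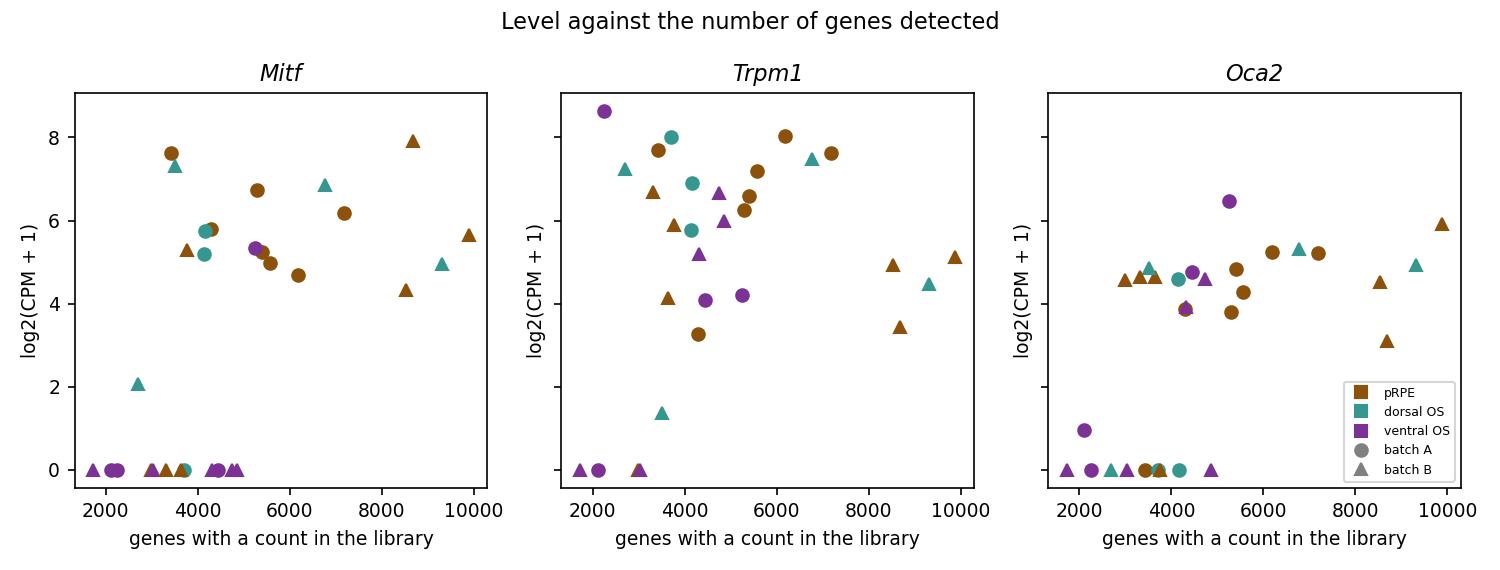
Level of each gene on the log2(CPM + 1) scale against the number of genes with a count in the library, 30 points a panel. Libraries without Mitf reach 4853 detected genes and libraries with Mitf begin at 2693. Above 5250 detected genes every library has a count of all 3 genes.

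Set against 5276 other genes with a count in at least 8 libraries, neither gene stood near Mitf. Trpm1 ranked 2378 and Oca2 1719 by r with Mitf, where the median of all genes was 0.214. The genes most like Mitf were Tmem260 (r = 0.764), Zfp536 (0.754), Ubn2 (0.720), Cygb (0.718) and Appl1 (0.716). Those most like Trpm1 were Erp44 (0.775), Tmem219 (0.731), Zmiz1 (0.715), Tmem106b (0.714) and Gm6852 (0.697). Those most like Oca2 were Slc25a20 (0.782), Tex10 (0.780), Gm48335 (0.779), Col22a1 (0.773) and Skp1 (0.755). These are the top values among 5276 genes in libraries whose detection depth differs, and are given as a description.

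Lists of pigment cell genes were read beside the 3. Of the 11 genes of melanin synthesis and melanosomal transport, Oca2 included, 8 had a count and 6 were tested. None was called by edgeR between pRPE and OS or between dorsal and ventral OS, where 0 and 1 had an unadjusted p under 0.05. Over all genes that p was reached by 12.5% in the first contrast and 19.6% in the second, with 5.34% and 0.012% called. Their median log2 fold change was 1.14 between pRPE and OS, against 0.40 over all genes tested, and 1.24 between dorsal and ventral OS, against 0.84. Slc45a2, a melanosomal transporter, had a count in 13 of 14 pRPE, 6 of 7 dorsal OS and 1 of 9 ventral OS libraries, beside 11, 6 and 1 for Mitf, with medians of 573, 155 and 0 CPM (exact Fisher p for dorsal against ventral OS = 0.00874, adjusted 1). The ventral OS library that counted Slc45a2, OS ventral middle replicate 3, held 1309 CPM, so that the ventral OS mean was 145 CPM with it and 0 without it. It was not the library that counted Mitf. Slc7a11, the cystine transporter that feeds pheomelanin synthesis, was counted in 29 libraries. Over the 30 libraries r with Mitf was 0.388 for Slc45a2 and 0.298 for Slc7a11, beside 0.304 for Oca2.

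Of 22 genes of melanosome structure and traffic, 12 had a count, 8 were tested and 1 was called, higher in the pRPE than the OS, where 5.34% of all genes were called. The gene was Pmel, the melanosome fibril protein, counted in 3 of 14 pRPE libraries and listed at 0 in the OS (exact Fisher p = 0.0897, adjusted 0.499). Its pRPE mean of 3.27 CPM was 0.70 CPM without pRPE ventral distal replicate 4. Gpnmb, a melanosomal glycoprotein and Mitf target, had a count in all 14 pRPE and all 7 dorsal OS libraries and in 3 of 9 ventral OS libraries, with medians of 402, 169 and 0 CPM. Its edgeR log2 fold change between dorsal and ventral OS was 6.88 (SE 1.93, adjusted p = 0.133). Its r with Mitf was 0.534, with Oca2 0.411 and with Trpm1 0.113. In OS ventral middle replicate 2, the ventral library with Mitf, Gpnmb had 2 counts and Slc45a2 none, and Oca2 had 191. In the same library Serpinf1, an RPE marker, had 275 counts and the melanosome motor Myo5a had 177 (126 and 80.9 CPM). Each was also counted in 3 of the other 8 ventral OS libraries, at up to 291 and 188 CPM. In replicate 2 the RPE markers Otx2, Pmel, Tyr, Tyrp1, Dct, Rlbp1, Rpe65, Lrat, Ttr, Best1, Rdh5 and Slc16a3 were listed at 0. The stalk markers Cdh6 and Pax2 had 2840 and 36 counts there. The 16 RPE markers summed to 166 CPM in replicate 2. This sum includes 39.8 CPM of Mitf, the gene by which the library was singled out. In the other 8 ventral OS libraries they summed to 0 to 1322 CPM. That maximum lay in OS ventral middle replicate 3, where Slc45a2 alone held 1309 CPM.

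**Figure D4:**
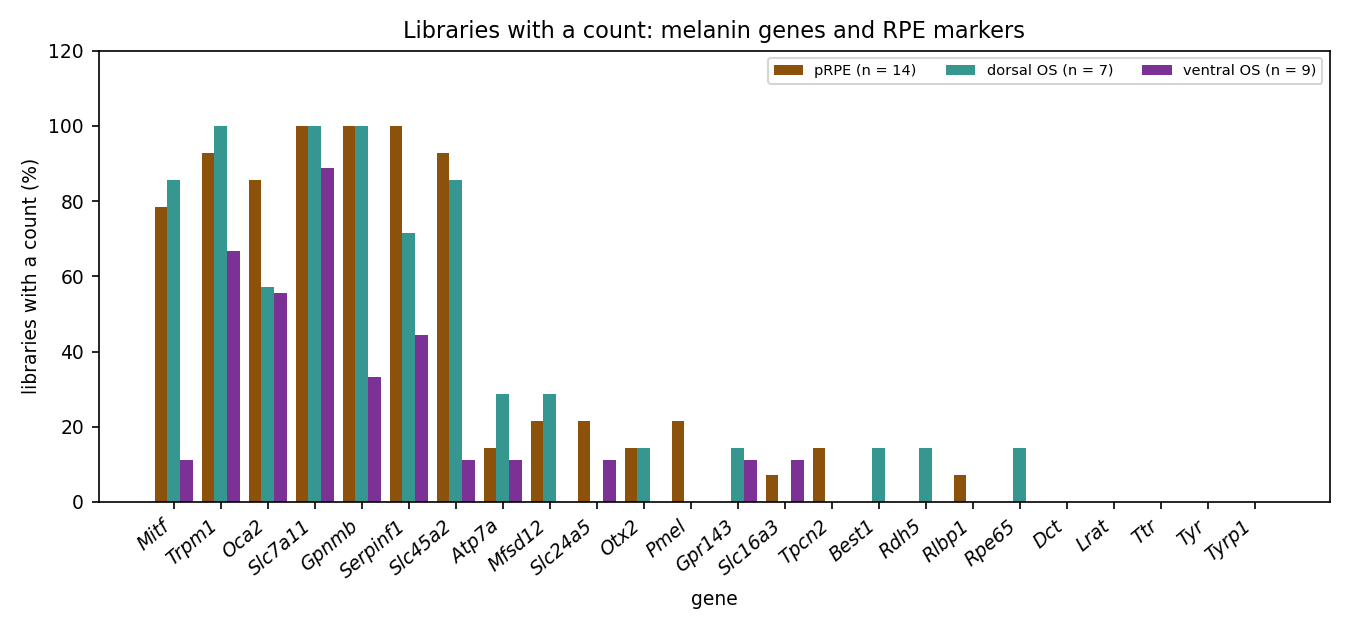
Share of libraries with a count, in percent, for the 3 genes and for the listed melanin and RPE marker genes, in the pRPE (14 libraries), dorsal OS (7) and ventral OS (9). Mitf and Slc45a2 are each counted in 11.1% of the ventral OS libraries, Trpm1 in 66.7% and Oca2 in 55.6%, and Tyr, Tyrp1 and Dct in none of the 30 libraries.

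Of the 19 genes of the MiT family and of RPE specification, Mitf included, 15 had a count and 9 were tested. None was called by edgeR between pRPE and OS or between dorsal and ventral OS. An unadjusted p under 0.05 was reached by 0 and 2, against 12.5% and 19.6% of all genes. The 2 were Mitf itself and Otx2, which was counted in 1 of 7 dorsal and 0 of 9 ventral OS libraries. Median log2 fold changes were 0.34 and 3.06 for those contrasts, against 0.40 and 0.84 over all genes tested. Tfec, an MiT factor expressed in the RPE, had a count in 8 of 14 pRPE, 7 of 7 dorsal OS and 7 of 9 ventral OS libraries, with medians of 33.2, 174 and 416 CPM, and r = -0.124 with Mitf. Tfeb was listed at 0 and Tfe3 had a count in 1 library. Of 14 further Mitf targets, Trpm1 included, 7 were tested and none was called by edgeR in these contrasts (0 and 2 with an unadjusted p under 0.05, against 12.5% and 19.6% of all genes). The 2 genes were Tbx2, counted in 1 of 7 dorsal and 0 of 9 ventral OS libraries, and Cdk4, counted in 0 of 7 and 2 of 9, so they ran in opposite directions and rest on 1 and 2 libraries.

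Within the TRPM family of 8 channels, 7 had a count and 5 were tested. Trpm3, whose gene hosts a microRNA related to miR-211, was called higher in the dorsal middle and distal than in the ventral OS (edgeR log2 fold change 10.64, SE 1.98, adjusted p = 0.000229), and was not called between the whole dorsal and the ventral OS (9.60, SE 2.76, adjusted p = 0.133). With most ventral libraries at or near 0 the fitted values are no measure of the ratio of levels. It had a count in 13 of 14 pRPE, 7 of 7 dorsal OS and 4 of 9 ventral OS libraries, with medians of 289, 746 and 0 CPM. The ventral OS mean of 90.1 CPM was 7.96 CPM without OS ventral proximal replicate 1, which held 747 CPM. Its r was 0.565 with Mitf and 0.053 with Trpm1. In that contrast 0.276% of all genes were called. Trpm7 had a count in 6 of 14 pRPE, 5 of 7 dorsal OS and 1 of 9 ventral OS libraries (exact Fisher p for dorsal against ventral OS = 0.035, adjusted 1), with r = 0.647 with Mitf and 0.066 with Trpm1. Its log2 fold change between dorsal and ventral OS was 7.07 (SE 3.48, edgeR adjusted p = 0.253). Trpm4, counted in 28 libraries, had r = 0.104 with Mitf. Trpm8, counted in 8 of 14 pRPE, 2 of 7 dorsal OS and 4 of 9 ventral OS libraries, had r = 0.353 with Mitf and 0.442 with Oca2.

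The marker lists gave the following summed levels beside these results. The 16 RPE markers, Mitf included and 5 of them at 0 throughout, summed to 607 to 2684 CPM in the pRPE, 327 to 2371 in the dorsal OS and 0 to 1322 in the ventral OS. The ventral maximum lay in OS ventral middle replicate 3, where Slc45a2 alone held 1309 CPM. The 10 optic stalk markers summed to 0 to 214 CPM in the pRPE, 24.9 to 1782 in the dorsal OS and 211 to 3223 in the ventral OS. Pax2, the defining stalk factor, had r = -0.455 with Mitf, -0.193 with Trpm1 and -0.303 with Oca2. Cdh6, also of the stalk list and counted in 25 libraries, had r = -0.327 with Mitf, -0.023 with Trpm1 and 0.028 with Oca2. Melanoblasts also express pigment genes, and the 10 markers of neural crest melanoblasts and glia summed to 0 to 367 CPM in the pRPE, 0 to 434 in the dorsal OS and 0 to 206 in the ventral OS. Of these, Foxd3 and Ednrb were at 0, Sox10 was counted in 1 library and Kit in 3. Others were counted more often. Sox8 had a count in 13 of 14 pRPE, 3 of 7 dorsal OS and 3 of 9 ventral OS libraries (exact Fisher p for pRPE against OS = 0.00243, adjusted 0.222), with medians of 39.4, 0 and 0 CPM, and r = 0.203 with Mitf and 0.520 with Oca2. Erbb3 had a count in 5, 5 and 3 libraries, with medians of 0, 101 and 0 CPM and r = 0.279 with Mitf. The summed maximum over the pRPE, dorsal OS and ventral OS was 106, 42.9 and 23.8 CPM for 12 neural retina markers and 1097, 266 and 945 CPM for 12 periocular mesenchyme markers. It was 64.4, 66.4 and 89.2 CPM for 10 blood markers and 307, 225 and 602 CPM for 10 endothelium markers. Each of these lists had libraries below 1 CPM, and 5, 6, 6 and 4 of its genes, in the same order, were at 0 throughout. Between pRPE and OS edgeR called Rax, an eye field factor of the neural retina list counted in 6 of 14 pRPE and 0 of 16 OS libraries (log2 fold change 8.60, SE 1.86, adjusted p = 0.0182). It also called Egfl7 of the endothelium list, counted in 4 of 14 and 0 of 16 (5.54, SE 1.37, adjusted p = 0.0182). Both were higher in the pRPE, and as the OS is at 0 the fitted values are no bounds. Of the stalk markers, Zic4 was called lower in the pRPE, with a count in 0 of 14 pRPE and 6 of 16 OS libraries, where the fitted value is likewise no bound. Cdh6 was called lower too (-3.62, SE 1.00, edgeR adjusted p = 0.0208), with a count in 10 of 14 and 15 of 16 libraries. Their part in the levels of Mitf, Trpm1 and Oca2 was not tested.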

How the data were processed

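Expression was measured in 30 laser-captured samples of control embryos. By the study's methods, reads checked with FastQC were aligned to GRCm38 with HISAT2 and quantified with StringTie; tool versions, the annotation release and how the count table was made are not given in the sources used here. The table the authors deposited holds estimated counts for each gene, not normalized, and was rounded here (270 values in 63 genes were not whole, none of them in the 3 genes). Genes with over 10 counts in 3 or more libraries were tested with edgeR 4.0.16 (R 4.3.3; TMM, quasi-likelihood test, batch as covariate, Benjamini-Hochberg adjustment over 8337 genes). Libraries with a count were compared by two-sided Fisher's exact tests over the same genes, and correlations by 100000 permutations (scipy 1.17.1). DESeq2 1.42.0, other scalings, filters and covariates, and leaving out each library were alternatives. The ventral OS alone and the minimum of 3000 detected genes were added after seeing the data. The edgeR and Fisher steps were tested on simulated data. The members and gene lists were chosen with earlier results of these data known. Named genes are the 3 members, genes of the lists and, per member, the 5 genes with the highest r among those counted in at least 8 libraries. The labels do not tie libraries to embryos, and the study's sample table with mouse IDs was not used here, so p-values measure the spread between libraries, which may be technical.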

Additional observations from a re-analysis of the deposited data

Results flagged for a closer look

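By Dixon's criterion, which chance meets in about 1 of 20 groups of normally distributed values, 3 of 21 gene and group combinations held a library far from the others. That rate does not apply to groups with many libraries at 0, where any single library with a count meets the criterion. Mitf stood at 39.8 CPM in OS ventral middle replicate 2, against 0 in the other libraries of the ventral middle region and of the whole ventral OS, so that 1 library accounts for 2 of the 3 combinations. Oca2 was listed at 0 CPM in pRPE ventral proximal replicate 3, against 12.8 to 27.7 CPM in the other 6 ventral pRPE libraries.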

How the results depend on the processing

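For the log2 fold changes of the 3 genes, 218 values under alternative settings kept the direction and the side of the threshold, 20 changed sign and 2 became calls; with 1 library left out, 366 kept both and 18 changed sign. DESeq2 called Mitf between dorsal and ventral OS (9.95) and with the dorsal proximal libraries left out (11.76). The scaling moved the median over all genes for dorsal against ventral OS from 0.84 (TMM) to 0.72 (library size) and 1.11 (DESeq2). The value of Trpm1 between pRPE and OS turned to 0.0035 without the batch term, 0.053 in libraries with at least 3000 detected genes and 0.098 against the ventral OS. Between dorsal and ventral pRPE Trpm1 turned to -0.027 (DESeq2), -0.20 (library size) and -0.045 (at least 3000 genes), and between distal and proximal pRPE to 0.0018 (at least 3000 genes). With the number of detected genes in the model, values turned to -0.064 for Oca2 between dorsal and ventral pRPE, 1.11 for Oca2 between distal and proximal pRPE, -1.36 for Trpm1 between dorsal middle and distal and ventral stalk, -0.41 and 0.098 for Mitf and Oca2 between batches and -0.90 for the Oca2 interaction. Oca2 also turned to -0.10 between pRPE and OS and -0.044 between dorsal and ventral OS (at least 3000 genes), 0.027 between distal and proximal pRPE (TMMwsp), 0.21 between distal and proximal OS (no batch term) and 0.084 between batches (library size), and Mitf to -0.17 between batches without the tissue term. With runs of library numbers as a replicate block, Trpm1 turned to -1.77 between distal and proximal OS, Mitf gave 9.11 between dorsal and ventral OS, and the block changed no call of the 3 genes. The genes called over the whole table went from 445 to 227 between pRPE and OS, from 1 to 6 between dorsal and ventral OS and from 23 to 10 with the dorsal proximal libraries out. Each run holds a region at most once and may be an embryo, but the labels do not say so, and the exact tests and correlations were run without it.

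Leaving out 1 library gave log2 fold changes of 0.58 to 1.68 (Mitf), -0.55 to -0.04 (Trpm1) and 0.10 to 0.92 (Oca2) between pRPE and OS. They were 7.36 to 10.27 (Mitf), 0.49 to 2.16 (Trpm1) and -0.027 to 0.98 (Oca2) between dorsal and ventral OS, and 8.67 to 10.53, -0.19 to 2.18 and 0.02 to 1.50 with the dorsal proximal libraries out. Within the pRPE they were 0.84 to 2.85, -0.20 to 0.65 and 0.31 to 0.91 between dorsal and ventral, and -3.98 to -0.05, -1.003 to 0.026 and -0.37 to 0.49 between distal and proximal. Between distal and proximal OS they were 1.77 to 6.24, -0.074 to 1.95 and -6.20 to -0.07, and between batches -0.42 to 0.42, -1.68 to -1.18 and -0.37 to 0.49.

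The share of libraries with a count turned, in percentage points, to -41.7 for Oca2 between dorsal and ventral OS in batch A, -25 for Trpm1 between distal and proximal OS in batch B, and -75 and -6.67 for Oca2 between dorsal middle and distal and ventral stalk (batch A, at least 3000 genes). With detected genes and batch removed, r was -0.060 for Mitf and Trpm1, -0.094 for Mitf and Oca2 and -0.282 for Trpm1 and Oca2. For the last pair it was also -0.034 as rho, -0.062 with pseudocount 10, -0.026 with library size, -0.148 in batch A, -0.012 without the farthest libraries and -0.034 with at least 3000 genes. Leaving out 1 library gave 0.178 to 0.328, 0.264 to 0.401 and -0.090 to 0.088 for these pairs, and Mitf and Oca2 passed an unadjusted permutation test without pRPE dorsal proximal replicate 1. A count of 0 bounds a level by counting error alone to 0.644 to 2.17 CPM, which is no bound where the table itself lost counts, and groups of 2 to 4 libraries per region limit the positional contrasts. The causes of these turns were not tested.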
